A study of Arabidopsis thaliana with 39 samples.

Results

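The genes described here are 100 Arabidopsis thaliana genes from the single-seed time course. In its libraries their scaled counts were the most confined to 3 and 5 days of secondary dormancy (SD) induction. They were taken from the 36899 nuclear genes listed for the time course, of which 5849 had a mean level of at least 30 counts per 1000000 (CPM) at both 3 days (3d) and 5 days (5d). Among those 5849, the 100 genes with the highest ratio were chosen, where the ratio is the lower of the 3d and 5d means over the highest mean of the other 4 time points, with 1 CPM added to each. The levels of these members in the time course therefore chose them and are given as a description, without a test.

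Dry after-ripened seeds of the wild type Col-0 were imbibed for 1 h. Others were kept on wet paper at 30°C in darkness for 1, 3, 5 or 7 days. A further group was moved to constant light at a lower temperature for 24 h after 7 days (7d+24h), so light and temperature changed together. Each time point was covered by 3 libraries of 32 single seeds, which are batches from a single seed pool, and 3 pool-split libraries held extracts of 7-day seeds that were mixed and divided again. A second experiment measured single seeds of Col-0 and of dog1-4, a mutant of the dormancy gene DELAY OF GERMINATION 1 (DOG1), at 3d and at 7d+24h of the same treatment, with 3 libraries of 32 seeds per genotype and time point. Another experiment compared 3 pools of untreated dry seeds of each genotype. DOG1 itself lay at 5.97 to 9.73 CPM in the dog1-4 libraries at 3d against 40.1 to 110 CPM in Col-0, at 1.13 to 2.97 against 14.7 to 23.1 CPM at 7d+24h, and at 3.54 to 8.23 against 62.7 to 75.1 CPM in dry seeds. Which seed pools went into the second experiment is not given in the labels, so genotype and seed pool cannot be told apart there, and p-values measure the spread between libraries. All 12 seed marker genes checked, storage proteins, oleosins and late embryogenesis abundant proteins, were detected in every group, at a summed 16440 to 206595 CPM per single-seed library.

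Secondary dormancy is the state in which an imbibed seed that had lost its primary dormancy stops responding to germination signals after stress such as heat in darkness. In the assay used here, crushed seed extract was reverse transcribed without purification of RNA, with an oligo(dT) primer that pairs with stretches of A, normally the poly(A) tail at the 3′ end of a messenger RNA. A unique molecular identifier (UMI) on the primer lets each primed molecule be counted only 1 time. Stretches of A also occur in the genome itself, in introns, in untranslated regions and between genes. UMIs on nuclear protein-coding genes are called genic below, and all other UMIs (between genes, ambiguous, on organelle genes or on nuclear non-coding genes) unspecific.

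The annotated functions of the members were of many kinds. Of the 100, 77 are protein-coding, 11 encode long non-coding RNAs (lncRNAs), 10 are pseudogenes and 2 are transcribed pseudogenes. Of the 5849 genes at the 30 CPM level, 91.4% are protein-coding, 2.46% lncRNA genes and 5.21% pseudogenes. The named proteins include auxin carriers (PIN5 and LAX2), a CLE signalling peptide (CLE22), kinases (CPK22 and SNRK2.7), a calcium channel of the cyclic nucleotide-gated family (CNGC15), transporters (UMAMIT3 and ABCG39), a cell wall enzyme (XTH26), transcription factors (BLH7, MYB47 and APL, the last known for phloem identity), a plant SNARE of membrane fusion (NPSN11), an exocyst subunit (EXO70H1) and POLA3, which is annotated as DNA primase. No member was found on the lists for ethylene synthesis (14 genes), dormancy and abscisic acid (13), heat (8), dark and sugar starvation (8) or hypoxia (5), of which 1, 9, 4, 4 and 1 genes lay at 30 CPM or more at 3d and 5d. By product name, 5 members were transcription factors (2.54% of all genes), 4 kinases (3.76%), 4 transporters (1.85%), 3 F-box proteins (1.77%) and 23 hypothetical or unknown proteins (19.5%). Nothing was read from these small counts.

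What most members shared beyond the rule was a long run of A on the sense strand, most often just past the annotated end of the gene. The longest such run within the gene or the 500 bases after it had a median of 14 bases in the members, 9 in the genes at the 30 CPM level and 7 in all 36899 genes. The windows below show the run in capitals in 7 of the 20 members with the highest ratio, in 3 members with a gene symbol where the run lies inside the gene, and in UMAMIT3, whose longest run was only 6 bases. They are read 5′ to 3′ on the gene's own strand from the RefSeq genome TAIR10.1.

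PIN5, plus strand, chr5:5402954-5402983, 117 bases after the gene end: ttgttaacAAAAAAAAAAAAAgaataaatg
AT2G29485, plus strand, chr2:12631315-12631344, 128 bases after the gene end: tgaagatAAAAAAAAAAAAAAAgacatcag
AT5G12236 and CLE22, plus strand, chr5:3958403-3958432, 129 and 282 bases after the gene ends: gccaaatgAAAAAAAAAAAAAAcaagaatg
AT4G32110, minus strand, chr4:15515541-15515570, 86 bases after the gene end: aactatcAAAAAAAAAAAAAAAgaggtttg
AT5G00985, plus strand, chr5:1343797-1343826, 140 bases after the gene end: ttagacatAAAAAAAAAAAAAAggagaaat
AT5G60530, minus strand, chr5:24333914-24333943, in an exon outside the coding sequence: cgaacaatAAAAAAAAAAAAAActatattt
CNGC15, plus strand, chr2:12052577-12052606, in an exon outside the coding sequence: gaattttgAAAAAAAAAAAAAtatattttt
HR2, plus strand, chr3:18728706-18728735, in an exon outside the coding sequence: caaatgtAAAAAAAAAAAAAAAAttatact
ABCG39, plus strand, chr1:24981214-24981243, in an intron: gaaagttAAAAAAAAAAAAAAAcaataata
UMAMIT3, plus strand, chr3:16867100-16867129, in an exon outside the coding sequence: tctcgttcgatcAAAAAAcacgttttgaca

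PIN5 and AT2G29485 had the highest ratios of all members, and AT5G12236 and CLE22 are neighbours 18 bases apart on the same strand whose longest run is the same one. Where UMIs of both neighbours come from the shared run, the neighbours are not independent members. Whether any UMIs do was not tested. Over all 100 members the longest run was 6 to 16 bases. It lay past the gene end in 66 members, at a median of 126.5 bases from it, in an exon outside the coding sequence in 17, in an intron in 12, in an exon of a gene without coding sequence in 3 and in a coding exon in 2. The run was at least 10 bases in 87 of 100 members, 47.1% of the genes at the 30 CPM level and 19.4% of all genes. It was at least 12 bases in 72 members, against 31.1% and 8.69%. Counted within the annotated gene alone, a run of at least 10 was found in 30 members, 25.3% of the genes at the 30 CPM level and 10.8% of all genes.

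Position and strand of the runs were compared next. Of the members, 61 had a run of at least 10 A entirely within the 500 bases after the gene, against 25.9% of the genes at the 30 CPM level and 9.60% of all genes. In the next 500 bases the same shares were 7 members, 7.54% and 7.13%, and in the 500 bases before the gene 16 members, 12.8% and 11.5%. Runs of at least 10 T in the 500 bases after the gene, which are runs of A on the other strand, were found for 4 members, 7.97% of the genes at the 30 CPM level and 8.66% of all genes. These shares are descriptions of a list chosen by its levels.

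**Figure D1:**
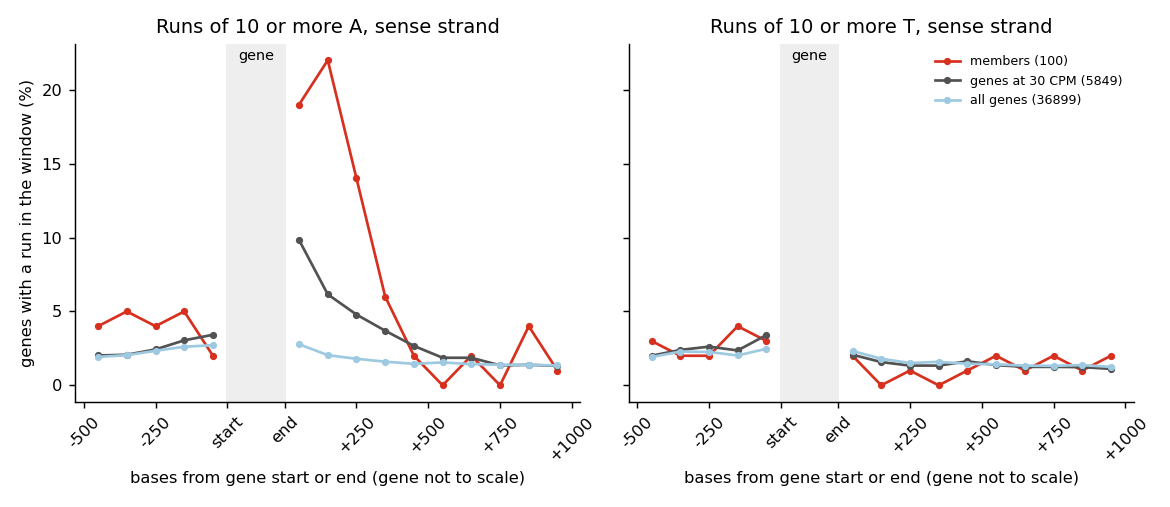
Share of genes (%) with a run of at least 10 A (left) or 10 T (right) on the sense strand in windows of 100 bases before the gene start and after the gene end, for the 100 members, the 5849 genes at 30 CPM or more at 3d and 5d, and all 36899 genes. Runs of A peak in the members at 22% in the window from 101 to 200 bases after the gene, while the T panel holds 0% to 4% in every window for the members.

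Length of the run and time course ratio went together across all genes at the 30 CPM level, members included. The median ratio was 0.473 for the 1974 genes with a longest run of 7 or less, 0.590 at 8 or 9, 0.838 at 10 or 11, 1.43 at 12 or 13 and 2.28 at 14 or 15 bases. At 16 or more bases it was lower again, 1.33 over 766 genes. Within the members the median ratio differed little, 5.39 for the 72 with a run of 12 or more and 5.25 for the 28 with 11 or less. Members made up 0.0911 of every 1000 genes with a run of 7 or less (2 of 21955), 13.5 of every 1000 with 12 or 13 and 65.1 of every 1000 with 14 or 15 bases (46 of 707), and 6.42 of every 1000 with 16 or more. The share of genes reaching 30 CPM at 3d and 5d itself climbed from 8.99% at 7 or less to 64.6% at 14 or 15 bases and 70.3% at 16 or more. Genes share base composition, neighbours and libraries and are no independent replicates, so no test was made.

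**Figure D2:**
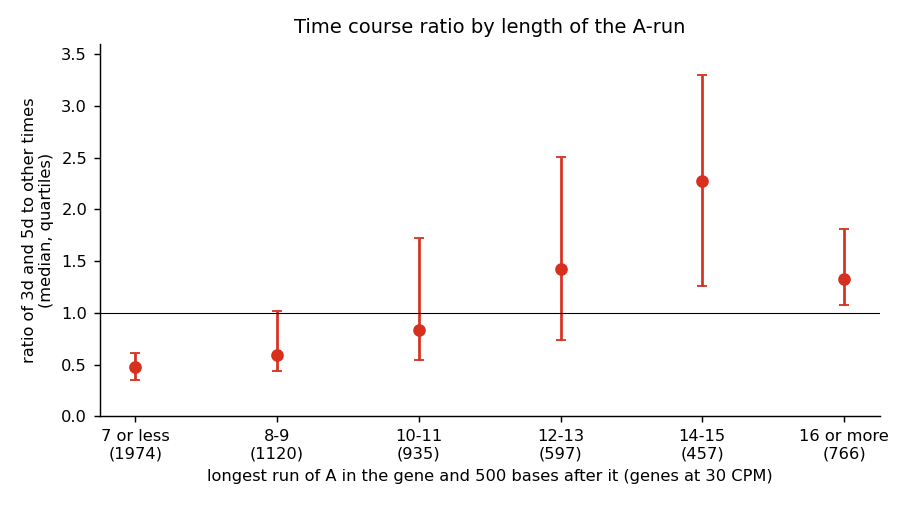
Median time course ratio (lower of 3d and 5d over the highest other time point, with 1 CPM added) with quartiles, by the longest run of A in the gene and the 500 bases after it, for genes at 30 CPM or more at 3d and 5d; the number of genes stands under each class. The median goes from 0.473 in the shortest class to 2.28 at 14 or 15 bases and 1.33 at 16 or more.

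In gene structure the members were short, with a median annotated span of 1566 bases against 2623 in the genes at the 30 CPM level and 1835 in all genes. A single exon was annotated in 44 members, 16.7% of the genes at the 30 CPM level and 35.5% of all genes. The members lay on all 5 chromosomes (28, 13, 23, 12 and 24 on chromosomes 1 to 5), 56 on the plus and 44 on the minus strand, and 17 overlapped another annotated gene, 2 of them on the same strand. Promoters, taken as 250 bases before to 50 bases after the annotated start and searched on both strands, held the abscisic acid element core ACGTG in 22 members, against 29.2% of the genes at the 30 CPM level and 24.7% of all genes. The G-box CACGTG, which contains ACGTG, was found in 5 members (10.3% and 6.53%) and the heat shock element GAANNTTC in 5 (11.1% and 11.4%). A match or its absence describes only the letters in this window.

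In the time course the members formed a plateau at 3d and 5d and were low elsewhere. Their mean levels were 31.2 to 87.0 CPM at 3d (median 47.8) and 30.4 to 90.2 CPM at 5d (median 48.2), with 59 members higher at 5d and 41 higher at 3d. The median member lay at 7.32 CPM at 1h, 1.36 at 1d, 1.95 at 7d and 1.35 at 7d+24h, so the step from 1d to 3d and that from 5d to 7d were both steep. The highest of the other time points was 1h for 98 members and 7d+24h for 2. In all 100 members each of the 6 libraries at 3d and 5d lay above each of the 12 others, as did 19.0% of the genes at the 30 CPM level, a count that the rule nearly fixes.

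**Figure D3:**
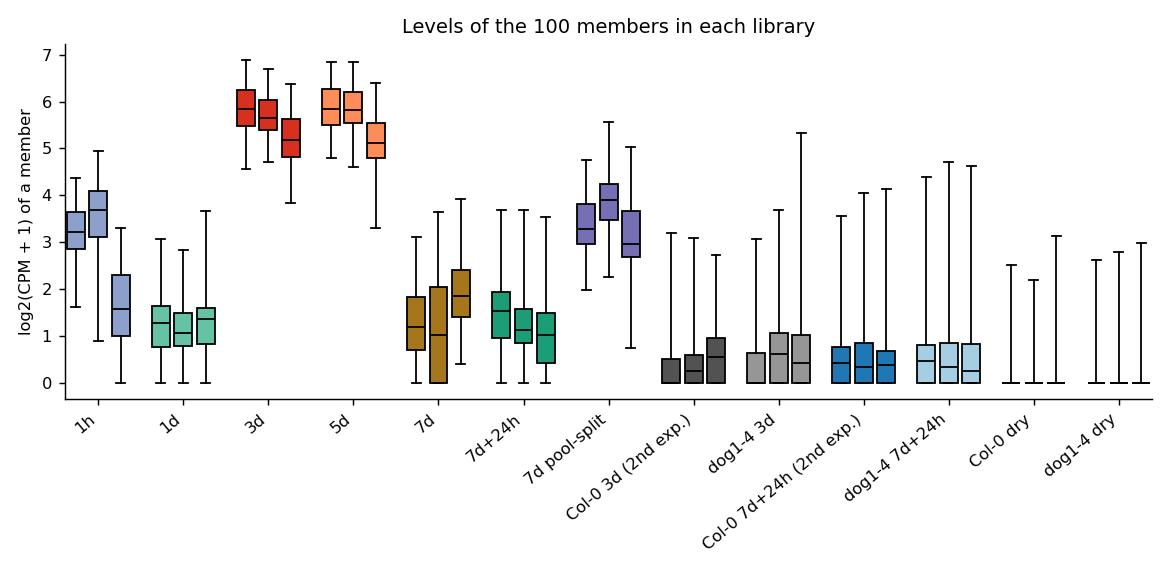
Levels of the 100 members as log2(CPM + 1) in each of the 39 libraries, 3 per group; boxes show quartiles and median, whiskers the lowest and highest member. The 6 time course libraries at 3d and 5d stand above all others, the pool-split libraries and replicates 1 and 2 at 1h lie between, and the 3d libraries of the second experiment lie near 0.

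PIN5, an auxin efflux carrier family member, had the highest ratio, 11.4. It lay at 80.6, 71.0 and 37.2 CPM in the 3 libraries at 3d and at 67.3, 76.7 and 38.0 CPM at 5d, which are means of 62.9 ± 22.8 and 60.7 ± 20.2 CPM (SD, n = 3). The 3 libraries at 1h gave 6.24, 5.96 and 0.989 CPM, and the libraries at 1d, 7d and 7d+24h lay between 0 and 1.88 CPM. All 6 libraries at 3d and 5d lay above all 12 others, 3d and 5d overlapped each other, and replicate 3 was the lowest at 1h, 3d and 5d. In seeds, PIN5 had a UMI in 76 of 96 seeds at 3d and 76 of 96 at 5d, with at most 10 UMIs in a seed, against 13, 3, 6 and 7 of 96 seeds at 1h, 1d, 7d and 7d+24h.

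CLE22, which encodes a precursor of a CLE signalling peptide, followed the same course, at 79.3, 66.5 and 40.7 CPM at 3d and 63.6, 61.1 and 35.0 CPM at 5d. Its libraries lay at 5.20, 5.96 and 3.95 CPM at 1h and at 0 to 1.92 CPM at the other time points. Its neighbour AT5G12236, a short uncharacterized gene, gave 37.8, 60.7 and 43.0 CPM at 3d and 68.2, 57.8 and 48.4 CPM at 5d. BLH7, a homeodomain transcription factor, gave 45.3, 44.7 and 34.3 CPM at 3d and 53.5, 38.9 and 30.5 CPM at 5d. It was 0 to 3.30 CPM at 7d and 2.39 to 6.90 CPM at 7d+24h, so the level at recovery was less low than in PIN5. UMAMIT3, of an amino acid transporter family, had 37.8, 29.8 and 26.2 CPM at 3d and at most 7.28 CPM in the 12 libraries of the other time points. Its ratio was 7.54. An auxin carrier, a peptide precursor, a transcription factor and a transporter had their high libraries at the same times, as the rule required.

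At the limit of the list, the last member inside was AT1G76290, of the AMP-dependent synthetase family, with a ratio of 4.41 from 32.5 CPM at 3d, 32.6 at 5d and 6.60 at 1h. The first gene outside was the ABC transporter gene ABCA6, also with a ratio of 4.41, from 49.3, 51.7 and 10.4 CPM. The median ratio was 5.35 for the members and 0.695 for all genes at the 30 CPM level. The limit therefore cuts through a continuous range.

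The number of UMIs on the members, before any scaling, was higher at 3d and 5d too, in the same libraries that chose the members. The 6 libraries at 3d and 5d held 4697 to 6665 UMIs on the 100 members and 794376 to 1720467 UMIs on all nuclear genes, against 196 to 1478 and 958976 to 3186856 in the 12 other libraries. In single seeds, the median member had a UMI in 72.4% of seeds at 3d and 72.9% at 5d, and in 19.8%, 9.38%, 10.4% and 11.5% of seeds at 1h, 1d, 7d and 7d+24h. A seed had UMIs on a median of 77 of the 100 members at 3d and 77.5 at 5d, and never fewer than 41 and 37. The nuclear UMIs per seed had medians of 30184.5 at 3d and 32719 at 5d, against 32157 at 1h, 77455.5 at 1d, 48289.5 at 7d and 82467.5 at 7d+24h. Counted with the unspecific UMIs, the libraries held 2521131 to 4269418 UMIs at 3d and 5d, 1694921 to 2991364 at 1h and 1322159 to 4335159 at 1d, 7d and 7d+24h. In extracts of whole seeds, more expressing cells and more RNA per cell cannot be told apart. Whether the counts came from either, or from the unspecific signal described next, was not tested.

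The unspecific UMIs moved with the members. They made up 62.0% to 75.5% of all UMIs in the libraries at 3d and 5d, 41.9% to 62.9% at 1h, 17.7% to 31.6% at 1d, 7d and 7d+24h, and 50.5% to 57.6% in the pool-split libraries. The levels summed over the members were 3748 to 6142 CPM at 3d and 5d. At 1h, where the unspecific share was 55.7%, 62.9% and 41.9% in the 3 libraries, the summed member level was 886, 1258 and 251 CPM. In 6 of the 7 groups of the time course, the pool-split included, the library with the lowest unspecific share also had the lowest summed member level, and in 5 the library with the highest share had the highest. Per 1000000 unspecific UMIs the members had 2106 to 2753 UMIs in the time course libraries at 3d and 5d. The 12 other time course libraries, the pool-split left out, held 358 to 786. All of these libraries chose the members. The part of the unspecific signal in the members' levels was not tested.

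**Figure D4:**
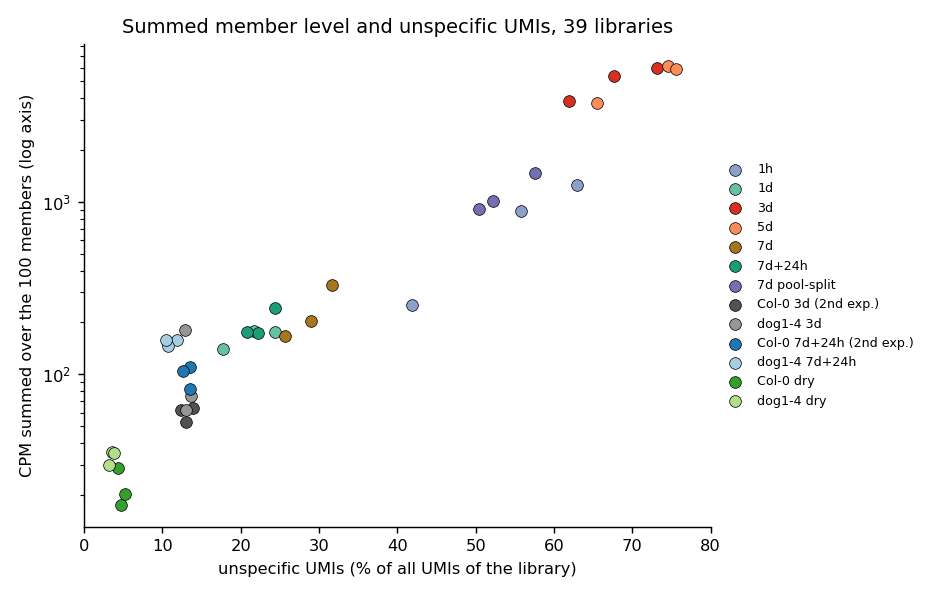
Level summed over the 100 members (CPM, log axis) against unspecific UMIs as a percentage of all UMIs, 1 point per library for 39 libraries, coloured by group. The libraries at 3d and 5d stand at the upper right with 62.0% to 75.5% unspecific UMIs and 3748 to 6142 CPM, and the libraries of the second experiment at 10.5% to 13.9% and 53.1 to 180 CPM.

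Over the 665 seeds of the time course and pool-split control with at least 5000 genic UMIs, the counts of every member correlated with the number of unspecific UMIs of the seed, with Pearson's r of 0.454 to 0.706 and a median of 0.579. The median was -0.11 over the 9073 genes averaging 1 UMI or more in a seed, of which 9.78% had r over 0.3. Of the 5849 genes at the 30 CPM level, from which the members were chosen, 1716 had r over 0.3. All 100 members lay above 0.3, and 11 of them average 1 UMI or more in a seed. The unspecific UMIs include those of the members that are not protein-coding, and they are a wider quantity than the intergenic signal on which the study filtered its genes, so this count does not apply the study's filter. Because unspecific UMIs and members both peak at 3d and 5d, the relation was also taken among seeds of the same group, centred within library, between the log2(CPM + 1) of the gene and the unspecific share of the seed. All 100 members had a positive r among the 96 seeds at 3d (median 0.284, against -0.07 over all genes with at least 1 UMI per seed) and all 100 among the 96 seeds at 5d (median 0.362, against 0.012). Of all those genes, 41.1% had a positive r at 3d and 51.1% at 5d, and 14.3% and 15.1% lay above the members' median. Within single libraries the members' median was 0.207 to 0.371 at 3d and 0.341 to 0.408 at 5d. It was 0.134 at 1h, 0.135 at 7d and 0.190 in the pool-split control, where extracts were equal before they were divided, and 0.049 and 0.013 at 1d and 7d+24h. In the 4 groups of the second experiment it lay between -0.008 and 0.030. The seeds share libraries, barcodes and depth, and the values are a description.

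**Figure D5:**
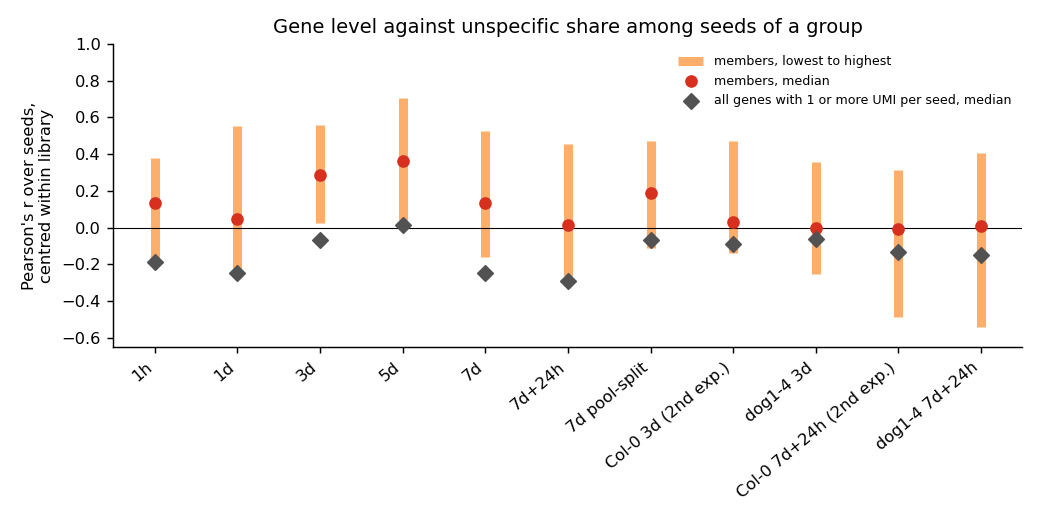
Pearson's r over seeds, centred within library, between log2(CPM + 1) of a gene and the unspecific share of the seed, by group; bars span the members, red points are their median and grey diamonds the median of all genes with at least 1 UMI per seed. The members' median is 0.284 at 3d, 0.362 at 5d and 0.190 in the pool-split control, above the median of all genes each time.

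The pool-split control received the same 7 days of treatment as the 7d seeds and had a higher unspecific share. The member levels in it were higher than at 7d in all 100 members by mean, and in 87 of 100 members each pool-split library lay above each 7d library, as in 29.4% of the genes at the 30 CPM level. The median difference was 1.97 on the log2(CPM + 1) scale for the members and -0.06 for all genes at that level. PIN5 lay at 8.29, 8.83 and 7.43 CPM in the pool-split libraries and at 0.639, 0 and 1.65 CPM at 7d. CLE22 lay at 4.88, 11.4 and 6.76 CPM against 1.92, 0 and 1.32 CPM. All 100 members stayed below their 3d mean. Per 1000000 unspecific UMIs the pool-split libraries held 923 to 1144 UMIs on members and the 7d libraries 493 to 733. Since the 7d libraries entered the rule, no test was made.

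In the second experiment, which the rule did not use, the 3d time point was measured again in Col-0. The median member lay at 0.297 CPM there, 85 members were under 1 CPM, 18 had no UMI in any of the 3 libraries, and the highest was AT2G20670, a gene of a domain family of unknown function, at 6.35 CPM. No UMI in a library of this experiment allows up to 0.592 to 1.69 CPM, from 3 counts of the total, for counting error only. Each time course library at 3d lay above each of these libraries in all 100 members, as in 44.9% of the genes at the 30 CPM level. The median difference between the experiments at 3d was 5.22 on the log2(CPM + 1) scale for the members and 0.20 for all genes at that level. The time course values at 3d in both comparisons entered the rule, which favours a higher level there, so no test was made. PIN5 had 1 UMI in the 3 Col-0 libraries at 3d of the second experiment together, CLE22 1, AT5G12236 1 and UMAMIT3 1. The median member had a UMI in 2.08% of the seeds. The unspecific share was 10.5% to 13.9% in all 12 libraries of this experiment. The experiments differ in seeds, libraries and unspecific share at the same time, and these cannot be told apart. Among genes at the 30 CPM level the 3d difference between the experiments also went with the length of the run of A. The median was -0.29 on the log2(CPM + 1) scale at 7 or less, 4.38 at 14 or 15 and 3.92 at 16 or more. These genes were admitted by their time course levels at 3d and 5d, and the share admitted itself rose with the run. Part of this relation can therefore come from the choice of genes, which was not tested.

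Only AT3G03550, which encodes a RING/U-box protein of the ubiquitin ligase type, reached an average of 1 UMI in a seed of the second experiment and was tested there. It did so through the 7d+24h libraries, where it was high, so a call in that direction had a greater chance. Calls were made at an adjusted p under 0.05 where the log2 fold change also exceeded 1 in size. Its level was 2.59, 0.842 and 1.88 CPM in Col-0 at 3d and 10.9, 15.5 and 16.5 CPM at 7d+24h. The groups did not overlap, and 3d was the lower. The log2 fold change of 3d over 7d+24h was -2.38 (SE 0.44, adjusted p = 0.000986, edgeR's quasi-likelihood test with Benjamini-Hochberg adjustment over 11191 genes), where 13.5% of the genes tested were called lower and 8.42% higher at 3d. In the time course the same gene was at 56.6, 85.9 and 61.0 CPM at 3d and 11.9, 10.4 and 10.7 CPM at 7d+24h. In dog1-4 it lay at 1.13, 4.34 and 6.60 CPM at 3d and at 20.0, 25.4 and 18.8 CPM at 7d+24h, a log2 fold change of -1.84 (SE 0.36, adjusted p = 0.000848 by the same test), where 17.6% of the genes were called lower. Between the genotypes its log2 fold change of dog1-4 over Col-0 was 1.02 (SE 0.52, adjusted p = 0.299) at 3d and 0.48 (SE 0.29, adjusted p = 0.213) at 7d+24h in this edgeR fit, neither called, with 1.04% and 10.3% of the genes called. The interaction of genotype and time was 0.54 (SE 0.60, adjusted p = 0.616, edgeR), with 4.32% of the genes called.

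With a filter on counts in place of the mean per seed (edgeR's filterByExpr, 15420 genes), 16 members were tested, and a member that enters through the group where it is high had a greater chance of a call. In Col-0, AT2G20670 (8.20, 7.57 and 3.28 CPM at 3d against 1.05, 1.09 and 0.899 at 7d+24h) and AT2G35260, of a CAAX protease family (3.45, 4.63 and 5.63 CPM against at most 0.817 CPM), were called higher at 3d by edgeR, with log2 fold changes of 3.26 (SE 1.00, adjusted p = 0.0191) and 3.45 (SE 1.02, adjusted p = 0.0161). They are 2 of 16, where 9.33% of the genes were called higher. AT3G03550 and the auxin influx carrier gene LAX2 were called lower at 3d, where 13.7% of the genes were. LAX2 lay at 1.29, 1.68 and 0 CPM at 3d and at 3.16, 5.72 and 10.2 CPM at 7d+24h, a log2 fold change of -1.96 (SE 0.70, adjusted p = 0.0374, edgeR), while the time course had it at 82.5 to 85.9 CPM at 3d and 2.79 to 4.08 CPM at 7d+24h. In dog1-4, 3 of the 16 members were called higher and 5 lower at 3d by edgeR, where 16.3% and 17.9% of the genes were. Without dog1-4 replicate 3 at 3d, a library that stood apart, 1 was called higher (AT2G20670) and 7 lower, where 19.0% and 22.5% of the genes were.

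The genotypes were compared over the 16 members that could be tested. At 7d+24h, edgeR with filterByExpr called 4 of the 16 members higher in dog1-4, where 5.45% of the genes were, and none lower. A member that passed this filter through the dog1-4 libraries, where it was high, had a greater chance of such a call. LAX2 gave 18.5, 18.1 and 23.9 CPM in dog1-4 against 3.16, 5.72 and 10.2 CPM in Col-0 (log2 fold change 1.55, SE 0.43, adjusted p = 0.0177, edgeR). NPSN11 gave 12.1, 3.51 and 7.50 against 1.05 to 2.18 CPM (log2 fold change 2.08, SE 0.64, adjusted p = 0.0289, edgeR). BLH7, at 7.29 to 9.81 against 1.40 to 3.54 CPM, and POLA3, at 4.86 to 7.54 against 0.702 to 2.72 CPM, were the others. In each of these called members the libraries of the genotypes did not overlap, but the share of all genes without overlap was not counted. At 7d+24h the 7 green tissue markers described below summed to 291 to 541 CPM in dog1-4 against 122 to 145 CPM in Col-0 with no marker at 0 in every library, and the 12 seed markers to 16440 to 20350 against 50096 to 72046 CPM. Their part in the members' differences was not tested. At 3d edgeR called 0 of 16 members between the genotypes, where 0.947% of the genes were called, and 1 member had an unadjusted p under 0.05. The interaction called 0 of 16, with 0 at an unadjusted p under 0.05, where 3.04% of the genes were called. DESeq2, run on AT3G03550 alone of the members, called 0 in both.

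Replicate 3 of dog1-4 at 3d stood apart. Its unspecific share of 12.9% was within that of the other libraries. It held 519 UMIs on the members, against 110 and 139 in the other dog1-4 libraries at 3d and at most 147 in Col-0. AT2G20670 gave 39.3 CPM in it against 3.95 and 1.63 CPM in the other dog1-4 libraries, and AT3G01190, a peroxidase family gene, 10.1 against 0.564 and 1.08 CPM. The 7 marker genes of green tissue checked, which encode Rubisco small subunits and chlorophyll a/b binding proteins, summed to 7215 CPM in this library, where in the other dog1-4 libraries at 3d the lowest was 41.2 CPM, and no marker was at 0 in every library of the group. At least 100 UMIs of these markers were found in 8 of its 32 seeds and in 0 seeds of the other dog1-4 libraries at 3d, a limit chosen after the values were seen. Those 8 seeds held 386 of the 519 member UMIs, and the other 24 seeds 133. Without this library the log2 fold change of AT2G20670 for 3d over 7d+24h in dog1-4 was 1.88 (SE 0.72, adjusted p = 0.0330, edgeR), in place of 4.12 (SE 0.88, adjusted p = 0.00140). That of AT2G35260 was 1.28 (adjusted p = 0.265, edgeR), in place of 3.76 (adjusted p = 0.00339). The part of green tissue in the members' levels was not tested. In the time course the green markers summed to 69.9 to 125 CPM at 3d and 113 to 129 CPM at 5d, within the 17.7 to 597 CPM of the other time points.

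In the dry seed pools the members were close to absent. No count was found in any of the 3 pools for 82 members in Col-0 and for 71 in dog1-4, where 3 counts of the total correspond to 0.885 to 3.57 CPM. The pools held 17 to 37 counts on all members in Col-0 and 62 to 101 in dog1-4, at 3.24% to 5.26% unspecific counts. No member passed the filter of the main test, in which 10.0% of 9580 genes were called by edgeR. Without a filter 32 members had a count and 1 was called, as were 3.37% of the genes called higher in dog1-4. It was APL, with 0 counts in the Col-0 pools and 5.16, 2.66 and 1.73 CPM in dog1-4 (22 counts, adjusted p = 0.00842, edgeR). Dry pools were made from purified and DNase-treated RNA, unlike the single seeds.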

How the data were processed

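Single Arabidopsis seeds were sequenced from the 3′ end with barcoded oligo(dT) primers and UMIs. According to the study's methods, the authors trimmed poly(A), mapped reads with STAR 2.7.8a to TAIR10 with the Araport11 annotation, and deposited counts of UMIs per gene and seed from BRBseqTools on the sense strand. Dry seed pools were counted with HTSeq 0.11.3 after UMI-tools 1.1.0. The deposited counts are whole numbers and not normalized.

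The 32 seeds of a library were summed, and CPM are per 1000000 counts on the nuclear genes. For the tests, seeds with at least 5000 genic UMIs and genes averaging 1 UMI or more in a seed were kept. Counts were tested with edgeR 4.0.16 (R 4.3.3; quasi-likelihood, TMM, Benjamini-Hochberg adjustment), with 12 libraries of the second experiment in 1 fit, and DESeq2 1.42.0 as an alternative. Dry pools were filtered with filterByExpr and called at an adjusted p under 0.05. The scripts were tested on simulated data. Tables were handled with pandas 2.3.3 (Python 3.11.15).

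Libraries of the time course held 794376 to 3186856 UMIs on nuclear genes. Limits from 0 counts cover counting error only. The members, lists and tests were chosen with earlier results of these data known. Named genes were the 20 with the highest ratio, members with the largest changes or calls in the second experiment, and genes beside the limit of the list. Other members were named after their values were seen, because they carry a gene symbol. Runs of A were searched in the RefSeq TAIR10.1 genome on the sense strand; the window of 500 bases after the gene was chosen after the data were examined. Genes overlapping on the same strand, or read through from a neighbour, cannot be told apart by these counts.

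Same-numbered libraries of the second experiment deviated together with a mean correlation of 0.110 (range -0.244 to 0.468 over 18 pairs), and those of the dry pools with -0.068, so that the numbers were not taken to pair the libraries.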

Additional observations from a re-analysis of the deposited data

Results flagged for a closer look

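AT3G03550 and LAX2 moved in opposite directions in the time course and in the second experiment. AT3G03550 had a log2 fold change of -2.38 for 3d over 7d+24h in Col-0 of the second experiment, and a difference of 2.52 on the log2 scale in the time course. LAX2 had -1.96 in the second experiment and 4.30 in the time course. In both genes every 3d library lay above every 7d+24h library in the time course and below every one in the second experiment. AT3G03550 passed the filter of the second experiment through its 7d+24h libraries. LAX2 was tested only with filterByExpr, and its high libraries there were also those at 7d+24h. For both genes a call in that direction therefore had a greater chance. The share of all genes with such opposite orders was not counted. The difference between the experiments was not tested, and the rule that chose the members used the time course values.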

How the results depend on the processing

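Other settings for choosing the members kept different numbers of the 100. TMM-scaled library sizes kept 50, a level of 60 CPM kept 23, and a limit of 0.3 on the correlation with unspecific UMIs kept 0. UMIs per 1000000 unspecific UMIs in place of CPM, with the level also lowered to 15 and added after seeing the data, kept 59. A level of 15 CPM alone kept 71. Leaving out replicate 1, 2 or 3 of every time point kept 63 to 78, with 63 without replicate 2. With counts against the number of unspecific UMIs, the median r was 0.433 at 3d, 0.467 at 5d and 0.252 in the pool-split control. The pool-split difference of 1.97 was 0.87 per 1000000 unspecific UMIs, also added later, and 1.70 to 2.34 when a replicate was left out. With filterByExpr the members called were 4 for 3d against 7d+24h in Col-0, 8 in dog1-4 and 4 between the genotypes at 7d+24h, in place of 1, 1 and 0. Without dog1-4 replicate 3 at 3d, added later, they were 5, 8 and 4. In dry seeds no filter gave 1 in place of 0, and the other settings there tested no member. Runs of at least 10 A in the gene were found in 30 members, in 69 with 200 and 87 with 500 bases after it, both added later. The interaction for AT3G03550 was -0.10 to 1.42 when a replicate was left out, with -0.10 without replicate 3 (adjusted p = 0.956, edgeR), and the cause of these changes was not tested.

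With the replicate number as a block, 1 member was called for 3d against 7d+24h in each genotype and 0 in the other comparisons. These were run for AT3G03550 alone of the members. The block changed none of its calls and was not run with filterByExpr. The genes called between the genotypes at 3d were 116, and 185 with the block, 223 with DESeq2, 24 with only the groups compared and 2 without replicate 2. At 7d+24h they were 1158, and 8 without replicate 2. For the interaction they were 483, and 2 and 0 without replicates 1 and 2 and 1406 without replicate 3. Without TMM the genes called for 3d against 7d+24h in Col-0 were 283 higher and 3506 lower, in place of 942 and 1513. With the limit of 0.3 on the correlation with unspecific UMIs, which is not the intergenic quantity of the study, 706 genes and no member could be tested.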
